A study of Mus musculus with 24 samples.

Results

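Genes that move, store and bind calcium were examined in the cortex of 24 male mice from 4 strains, of which 12 had received conduritol B epoxide (CBE) and 12 phosphate-buffered saline (PBS). The set listed 36 genes by symbol: the pore, beta and alpha2delta subunits of voltage-gated calcium channels, the release channels and pumps of the endoplasmic reticulum (ER), the pumps and exchangers of the plasma membrane, 3 calcium-binding buffers, 2 ER calcium sensors and the channel Trpc7. Each gene was taken by its gene symbol in the platform annotation, at the probe set of highest mean signal where it had several. Of the 36 genes, 34 were found under a probe set with 1 symbol, among 22180 genes in all, and Cacnb3 and Itpr1 were not analysed here.

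Calcium enters neurons through voltage-gated channels and through channels of the TRP family, and it leaves the ER through ryanodine receptors and inositol trisphosphate (IP3) receptors. ATP-driven pumps return it to the ER or expel it from the cell, sodium-calcium exchangers expel it after activity, and buffer proteins bind it in the cytoplasm. CBE is an irreversible inhibitor of glucocerebrosidase, the lysosomal enzyme that is deficient in Gaucher disease, and raised calcium release from the ER has been proposed in the neuronopathic form of that disease (nGD). In the cortex, calbindin (Calb1), calretinin (Calb2) and parvalbumin (Pvalb) also serve as markers of separate classes of inhibitory interneuron.

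The strains were SV129, FVB, C3H and C57 (C57BL/6JOlaHsd in the design text), and each gave 3 mice with PBS, labelled as healthy controls, and 3 mice with CBE, labelled as the nGD model. Injections were intraperitoneal, with CBE at 25 mg/kg a day, and ran from postnatal day 8 to day 18, when all mice were 18 days old. The labels name no engineered allele. RNA came from the cortex of a 1 mm coronal section, and each array held 1 sample. Values are log2 signals, on which a difference of 1 is a doubling, and the level of 1 gene is not compared with that of another. The labels do not say whether mice of a group shared a litter, so the p-values measure the spread between these samples. In bulk tissue, fewer cells of a type and less RNA per cell cannot be told apart.

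All 9 pan-neuronal markers tried were well measured, and their mean level lay between 11.02 and 11.19 on the 12 PBS arrays. The median array signals lay between 4.14 and 4.22, and the signal of 3 of the 34 genes, Itpr3, Atp2a3 and Ryr1, had a mean below the median probe set (4.18). One PBS array of SV129, replicate 1, stood apart for the calcium genes: it was the lowest or the highest of all 24 arrays for 10 of the 34 (29.4%), against 9.87% of all genes. Over all genes, SV129 PBS replicate 2 was at the edge most often (16.6%, and for 5 of the 34, or 14.7%). Replicate 1 was singled out from the values of the calcium genes themselves. On it Pvalb read 5.76 where the other 23 arrays read 6.22 or more, and Atp2b4, a plasma membrane pump, read 11.02 where the others reached 10.46. Calls that rest on this array are given with and without it.

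Of these transcripts, 1 changed with CBE past the threshold. Over the mean of the 4 strains, 1 of the 34 genes passed an adjusted p of 0.05, and it was lower in CBE mice: Trpc7, a diacylglycerol-gated cation channel that admits calcium. Of all 22180 genes, 0.117% were called lower and 0.726% were called in either direction (limma, Benjamini-Hochberg adjustment over all genes). At an unadjusted p under 0.05 there were 4 of the 34 (11.8%), against 10.7% of all genes. By sign alone, 23 of the 34 were lower and 11 higher, against 12324 lower and 9856 higher among all genes, and the median change was -0.03 for the calcium genes and -0.01 for all genes. The size of the changes was also close to the background, with a median absolute change of 0.046 against 0.041.

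The precision bounds what change in array signal could have been missed, with intervals for each gene that were not adjusted over genes. For 31 of the 34 genes (91.2%) the 95% interval of the mean change lay within 1.2-fold in both directions, as it did for 90.4% of all genes. The exceptions were Trpc7, Cacnb2 and Pvalb, and no interval reached below -0.37 or above 0.27. Itpr3, Atp2a3 and Ryr1, dimmer than the median probe set, were among the 31. Whether their signal follows RNA at that level was not tested. The intervals within 1 strain were wider, with a median standard error over all genes of 0.10 in a strain and 0.05 in the mean.

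**Figure D1:**
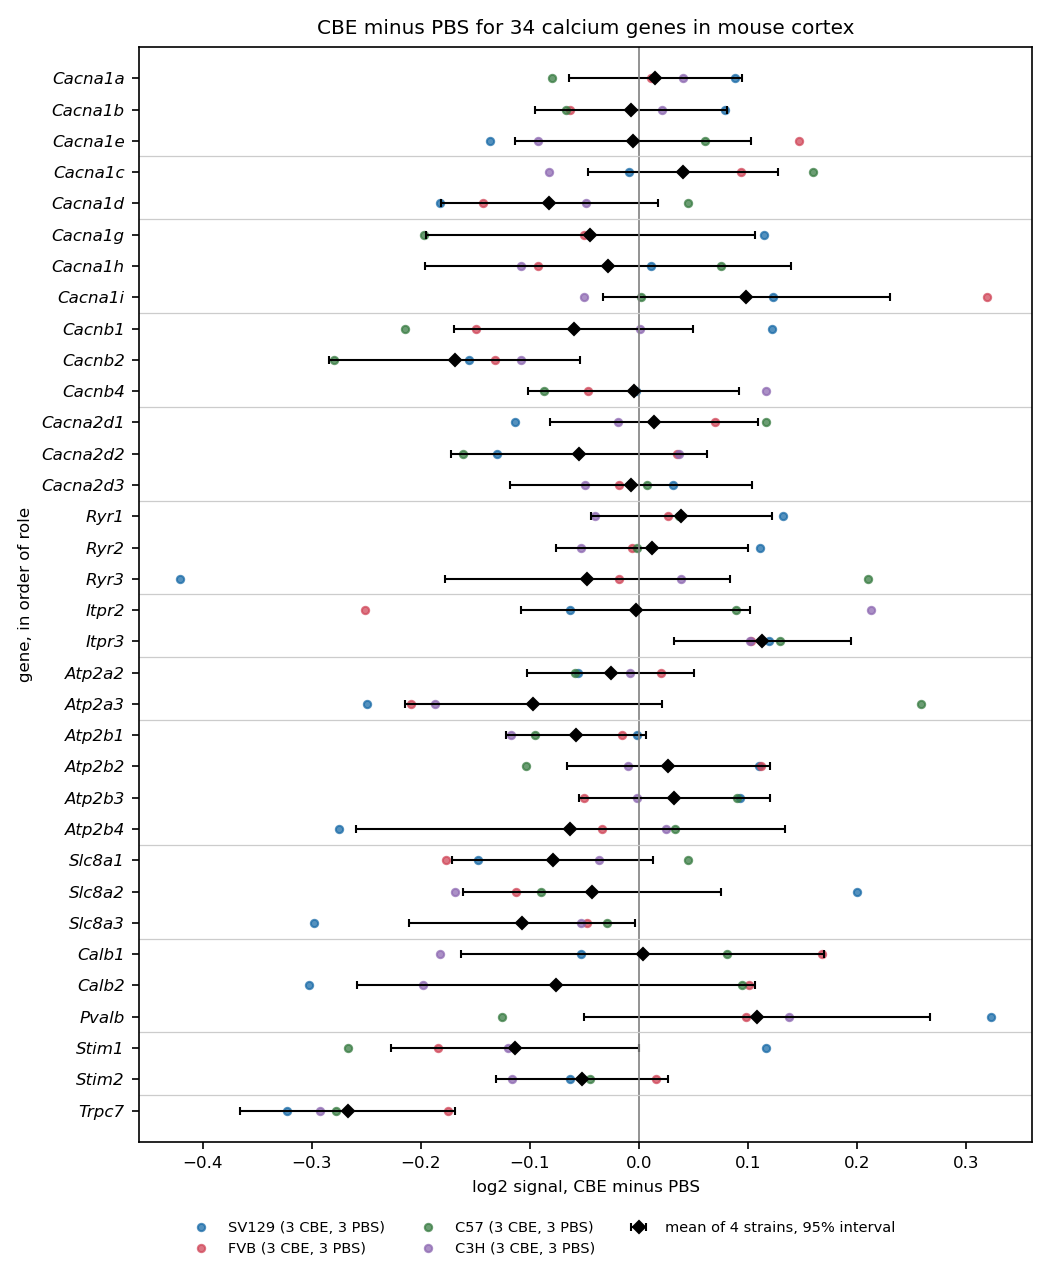
Difference in log2 signal between CBE and PBS mice (x axis) for the 34 measured genes in order of role (y axis, grey lines between roles). Coloured points are the differences within each strain (3 CBE and 3 PBS mice), and black diamonds with bars are the mean of the 4 strains with its 95% interval. The interval of Trpc7 lies farthest from 0, and the largest difference within a strain is that of Ryr3 in SV129, at -0.42.

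Trpc7 (probe set 17293028) was measured in SV129 at 4.52, 4.37 and 4.49 in PBS mice against 4.15, 4.26 and 3.999 in CBE mice, and in FVB at 4.22, 4.17 and 4.29 in PBS mice against 4.21, 3.94 and 4.01 in CBE mice. Its C57 arrays read 4.53, 4.24 and 4.22 in PBS mice against 4.07, 4.04 and 4.05 in CBE mice, and its C3H arrays 4.50, 4.59 and 4.69 in PBS mice against 4.22, 4.22 and 4.46 in CBE mice. All 12 CBE arrays lay below the PBS mean of their own strain, and the groups did not overlap in SV129, C57 and C3H. The mean change was -0.27 ± 0.05 (SE; 3 mice in each of 8 groups; 95% interval -0.37 to -0.17; limma adjusted p = 0.0042). By strain it was -0.17 in FVB, -0.28 in C57, -0.29 in C3H and -0.32 in SV129, each with a standard error of 0.095 and none past the threshold alone (adjusted p from 0.15 to 0.85). Without the SV129 PBS array that stood apart, the mean change was -0.26 with an adjusted p of 0.0091. The probe set lies close to the median of all probe sets, with array values from 3.94 to 4.69, so the fall was measured on a dim signal.

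The next 5 genes by unadjusted p in the mean of 4 strains did not pass the threshold, and their levels are given as values. Cacnb2, a beta subunit that carries pore subunits to the membrane, differed by -0.17 ± 0.06 (95% interval -0.28 to -0.05; adjusted p = 0.23), with 11 of 12 CBE arrays below the PBS mean of their strain. It read 6.81, 7.31 and 6.85 in PBS mice against 6.92, 6.92 and 6.67 in CBE mice of SV129, and 6.94, 6.95 and 6.89 in PBS mice against 6.82, 6.81 and 6.76 in CBE mice of FVB. In C57 it read 7.16, 7.07 and 7.32 in PBS mice against 7.001, 6.80 and 6.91 in CBE mice, and in C3H 7.08, 7.07 and 7.30 in PBS mice against 7.18, 6.90 and 7.04 in CBE mice. The groups were apart in FVB and C57 and overlapped in SV129 and C3H. A second, dimmer probe set of Cacnb2, with a mean level of 3.56, gave a difference of 0.04, so the gene's probe sets disagree in sign.

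Itpr3, an IP3 receptor with little known expression in neurons, was the only gene of the 34 higher in CBE mice in all 4 strains. Its SV129 arrays read 3.76, 3.78 and 3.79 in PBS mice against 3.81, 3.97 and 3.91 in CBE mice, and its FVB arrays 3.66, 3.80 and 3.86 in PBS mice against 4.05, 3.82 and 3.77 in CBE mice. The C57 arrays read 3.66, 3.82 and 3.79 in PBS mice against 3.86, 3.91 and 3.89 in CBE mice, and the C3H arrays 3.79, 3.65 and 3.86 in PBS mice against 3.84, 3.91 and 3.86 in CBE mice. CBE arrays were above the PBS mean of their strain in 11 of 12 mice, and the groups were apart in SV129 and C57. The mean difference was 0.11 ± 0.04 (95% interval 0.03 to 0.19; adjusted p = 0.25), on a signal below the median probe set, and the second probe set of the gene gave 0.02.

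Slc8a3, the sodium-calcium exchanger NCX3, read in SV129 7.31, 7.24 and 7.18 in PBS mice against 7.09, 6.76 and 7.01 in CBE mice, and in FVB 6.93, 6.86 and 6.94 in PBS mice against 6.93, 6.85 and 6.81 in CBE mice. Its C57 values were 6.98, 6.83 and 6.82 in PBS mice against 6.96, 6.87 and 6.71 in CBE mice, and its C3H values 6.88, 6.92 and 6.68 in PBS mice against 6.55, 6.97 and 6.79 in CBE mice. The groups were apart only in SV129, where the difference was -0.30 against -0.05 to -0.03 elsewhere, and the difference between strains was not called (interaction F-test, smallest adjusted p of the 34 genes 0.646). Over strains it was -0.11 ± 0.05 (adjusted p = 0.45), with 9 of 12 CBE arrays below the PBS mean of their strain.

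Stim1, the ER sensor that opens plasma membrane calcium channels when the store empties, read in SV129 7.84, 7.73 and 7.81 in PBS mice against 8.10, 7.82 and 7.81 in CBE mice, and in FVB 7.76, 7.73 and 7.79 in PBS mice against 7.36, 7.76 and 7.62 in CBE mice. The C57 levels were 7.89, 7.76 and 7.64 in PBS mice against 7.39, 7.53 and 7.58 in CBE mice, and the C3H levels 7.93, 7.87 and 7.87 in PBS mice against 7.50, 7.97 and 7.84 in CBE mice. CBE mice were lower without overlap in C57 and had the higher mean in SV129. The mean over strains was -0.11 ± 0.05 (adjusted p = 0.47), with 8 of 12 CBE arrays below the PBS mean of their strain.

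Atp2b1, the most broadly expressed plasma membrane calcium pump, read in SV129 12.16, 12.38 and 12.40 in PBS mice against 12.38, 12.24 and 12.31 in CBE mice, and in FVB 12.23, 12.22 and 12.25 in PBS mice against 12.22, 12.18 and 12.26 in CBE mice. For C57 the values were 12.21, 12.21 and 12.20 in PBS mice against 12.16, 12.09 and 12.09 in CBE mice, and for C3H 12.43, 12.42 and 12.43 in PBS mice against 12.31, 12.30 and 12.32 in CBE mice. CBE arrays were lower without overlap in C57 and C3H. Over strains the difference was -0.06 ± 0.03 (adjusted p = 0.53), with 10 of 12 CBE arrays below the PBS mean of their strain.

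**Figure D2:**
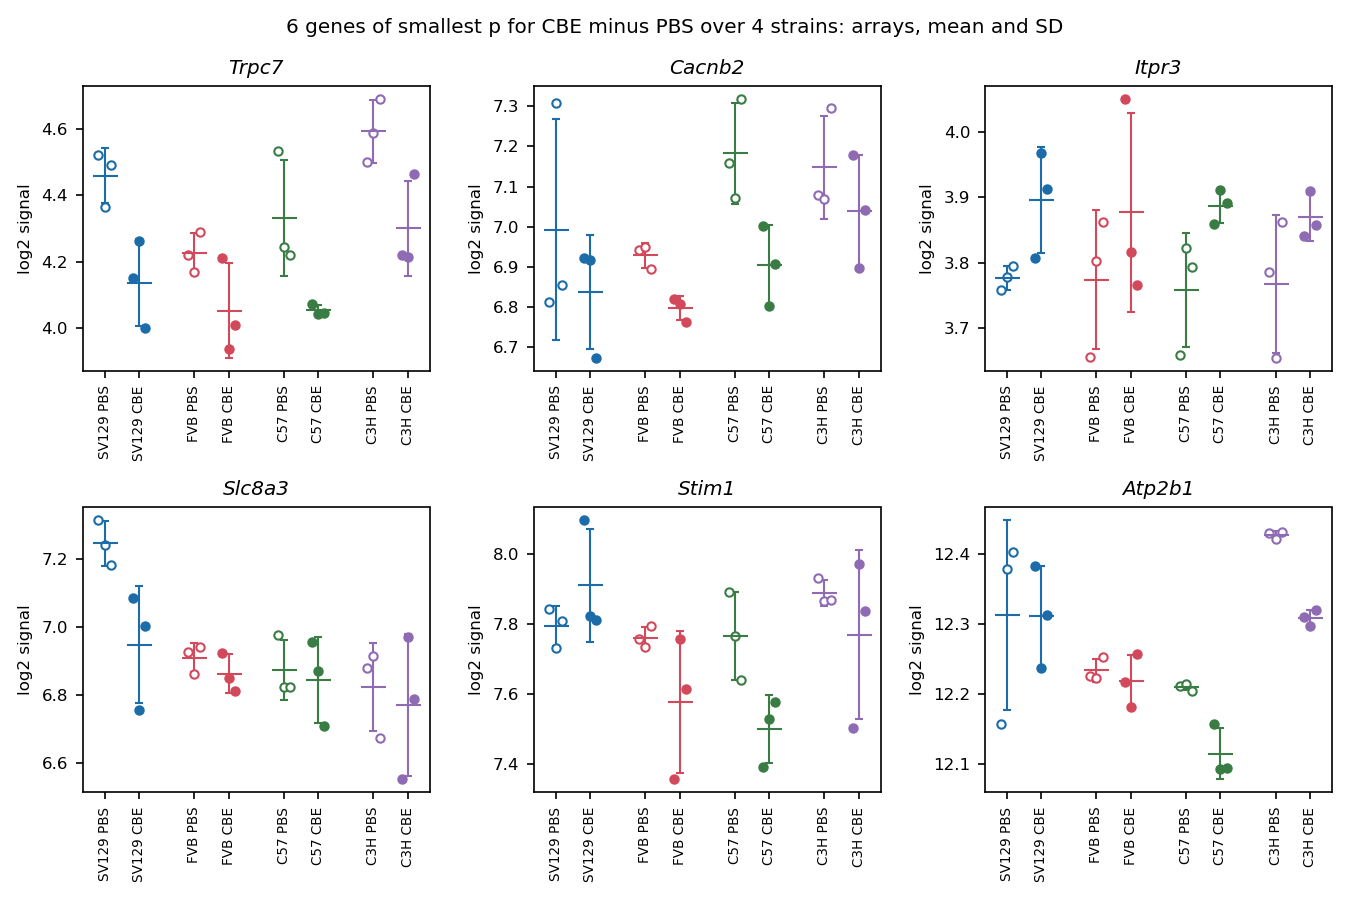
Log2 signal (y axis, a separate range in each panel) of the 6 genes with the smallest p for CBE minus PBS over 4 strains, by strain and agent (x axis). Open circles are PBS arrays, filled circles CBE arrays, and lines with bars the mean and SD of 3 mice. Trpc7 is lower in CBE mice of each strain, with overlap in FVB alone, and Stim1 has its lower CBE values in C57 and its higher ones in SV129.

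Within single strains none of the 34 genes was called in SV129, where 0.113% of all genes were, nor in FVB (0.135% of all genes), C57 (0.325%) or C3H (0.0361%). The smallest adjusted p of a calcium gene was 0.146 in SV129, 0.545 in C57, 0.665 in C3H and 0.681 in FVB (limma, 3 against 3 mice in each). At an unadjusted p under 0.05 there were 5, 4, 2 and 2 genes in the same order of strains, or 14.7%, 11.8%, 5.88% and 5.88%, against 13.0%, 5.78%, 5.02% and 6.27% of all genes. Those in SV129 were Ryr3, Atp2a3, Slc8a3 and Trpc7, all lower, and Pvalb, higher. Those in C57 were Cacnb2, Stim1 and Trpc7, lower, and Atp2a3, higher. FVB gave Cacna1i (0.32) and Itpr2 (-0.25), and C3H gave Itpr2 (0.21) and Trpc7 (-0.29).

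Counting genes whose 3 CBE arrays lay wholly above or below the 3 PBS arrays gave 5 lower and 1 higher in SV129 (17.6%), where 15.5% of all genes did not overlap. FVB had 4 lower and 4 higher (23.5%, against 11% of all genes), C57 had 9 lower and 2 higher (32.4%, against 13%), and C3H had 2 lower and 1 higher (8.82%, against 9.67%). These shares of all genes, and those at an unadjusted p within strains, include dim genes. They were not computed among genes above the median probe set, where most of the calcium genes lie, so no excess of calcium genes is read from them. The 9 in C57 were the presynaptic pore subunit Cacna1a, the T-type pore subunit Cacna1g, the beta subunits Cacnb1 and Cacnb2, the ER pump Atp2a2, the plasma membrane pump Atp2b1, the exchanger Slc8a2, Stim1 and Trpc7. An exact permutation test of 3 against 3 cannot give a p below 0.1, and none of these 9 passed the adjusted threshold in C57. By sign within strains, 4 genes were lower in all 4 strains, namely Cacnb2, Atp2b1, Slc8a3 and Trpc7 (11.8%, against 9.97% of all genes), and Itpr3 alone was higher in all 4 (2.94%, against 6.38%).

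By role, the pore subunits of the Cav2 channels that trigger transmitter release, Cacna1a, Cacna1b and Cacna1e, had mean differences of 0.02, -0.01 and -0.01. The L-type pore subunits Cacna1c and Cacna1d, which couple activity to gene expression, had 0.04 and -0.08, and the T-type subunits Cacna1g, Cacna1h and Cacna1i, which support burst firing, had -0.04, -0.03 and 0.10. None of these 8 pore subunits passed the test, and the smallest adjusted p among them was 0.57. Of the other beta subunits, Cacnb1 had -0.06 and Cacnb4 had -0.00, although a second, dimmer probe set of Cacnb4 gave -0.12. The alpha2delta subunits, which raise channel number at the surface and of which Cacna2d1 and Cacna2d2 bind gabapentin, had 0.01 for Cacna2d1, -0.05 for Cacna2d2 and -0.01 for Cacna2d3.

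The proposal about this disease concerns the ER release channels. Ryr2, the main ryanodine receptor of brain, had a mean difference of 0.01 (95% interval -0.08 to 0.10), and Ryr1 had 0.04 (-0.04 to 0.12). Ryr3 had -0.05 (-0.18 to 0.08), made up of -0.42 ± 0.13 in SV129 mice, 0.21 in C57, 0.04 in C3H and -0.02 in FVB. Itpr2, an IP3 receptor prominent in astrocytes, had -0.00 (-0.11 to 0.10), with -0.25 in FVB against 0.21 in C3H. The ER pump Atp2a2 (SERCA2) had -0.03 (-0.10 to 0.05), and Atp2a3 (SERCA3) had -0.10 (-0.21 to 0.02). The IP3 receptor Itpr1 was not analysed, so these values do not cover all ER release channels of the set. The intervals concern the array signal of RNA only, and channel activity was not measured.

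Among the calcium exit routes, the pumps Atp2b2, Atp2b3 and Atp2b4 had mean differences of 0.03, 0.03 and -0.06, and the exchangers Slc8a1 (NCX1) and Slc8a2 (NCX2) had -0.08 and -0.04. Atp2b4 had its largest value in SV129, at -0.28, where the PBS array that stood apart read 11.02 and the other PBS arrays 9.84 and 10.32, and without that array the difference turned to 0.04. The buffers Calb1, Calb2 and Pvalb had 0.00, -0.08 and 0.11, and Stim2, the second ER sensor, had -0.05. Pvalb in SV129 read 5.76, 6.47 and 6.59 in PBS mice against 6.61, 6.39 and 6.79 in CBE mice, a difference of 0.32 ± 0.15 (adjusted p = 0.37) that was 0.06 without the low PBS array. In SV129 Calb2 differed by -0.30 with an adjusted p above the threshold, and its PBS values are given with the strain comparison.

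Whether strains differed in their response was tested by the interaction of strain and agent. None of the 34 genes was called (limma F-test), where 2 of all genes (0.00902%) were, and the smallest adjusted p of a calcium gene was 0.646. An unadjusted p under 0.05 was reached by 3 of the 34 (8.82%, against 6.57% of all genes): Ryr3 at 0.0135, Atp2a3 at 0.0146 and Itpr2 at 0.0226. Atp2a3 read in SV129 4.14, 4.31 and 4.15 in PBS mice against 4.02, 4.07 and 3.76 in CBE mice, and in FVB 4.07, 3.66 and 4.01 in PBS mice against 3.75, 3.72 and 3.64 in CBE mice. Its C57 arrays read 3.80, 3.84 and 3.76 in PBS mice against 4.02, 4.25 and 3.90 in CBE mice, and its C3H arrays 4.31, 4.12 and 3.90 in PBS mice against 3.88, 3.92 and 3.96 in CBE mice. CBE mice were higher without overlap in C57 (0.26) and lower in the other strains (-0.25, -0.21 and -0.19), on a signal below the median probe set.

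Among markers of other cell types and brain regions, Csf1r, a microglial receptor, was the only marker gene called in the mean of 4 strains, higher by 0.29 ± 0.06 (adjusted p = 0.033) and above the PBS mean of the strain on 12 of 12 CBE arrays. All 5 measured microglial markers of 6 listed were above the median probe set, and their mean level on PBS arrays ran from 6.57 to 7.16 and on CBE arrays from 6.81 to 7.65. Within strains, the thalamic gene Ntng1 was lower in CBE mice of SV129 and Acta2, a smooth muscle actin, was higher in CBE mice of C57 (adjusted p = 0.010 and 0.032). Their part in the values of the calcium genes was not tested.

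Differences between strains were called for more of these genes. These are differences in array signal, and whether the probes match the sequence of each strain equally was not tested. Among PBS mice, 9 of the 34 genes differed between the 4 strains (26.5%, against 13% of all genes; limma F-test, adjusted p under 0.05). They were the sodium-calcium exchangers Slc8a1 and Slc8a3, the ryanodine receptors Ryr2 and Ryr3, the channel subunits Cacnb1, Cacna2d1 and Cacna1c, the buffer Calb2 and Trpc7. Among genes above the median probe set, 9 of 31 calcium genes (29.0%) and 24.9% of all such genes were called. At an unadjusted p under 0.05 there were 16 of 34 (47.1%), against 26.0% of all genes, and the median range of the 4 strain means was 0.28 against 0.19. Both backgrounds include dim genes, and neither was computed among genes above the median probe set. Without the SV129 PBS array that stood apart, 7 were called: Slc8a3, Trpc7, Calb2 and Cacna1c no longer passed (adjusted p = 0.084, 0.055, 0.13 and 0.052), and the pumps Atp2b1 and Atp2b4 passed. The call of Slc8a3 was also lost without SV129 PBS replicate 2. The count fell to 5 when either C57 PBS replicate 1 or C57 PBS replicate 3 was left out.

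**Figure D3:**
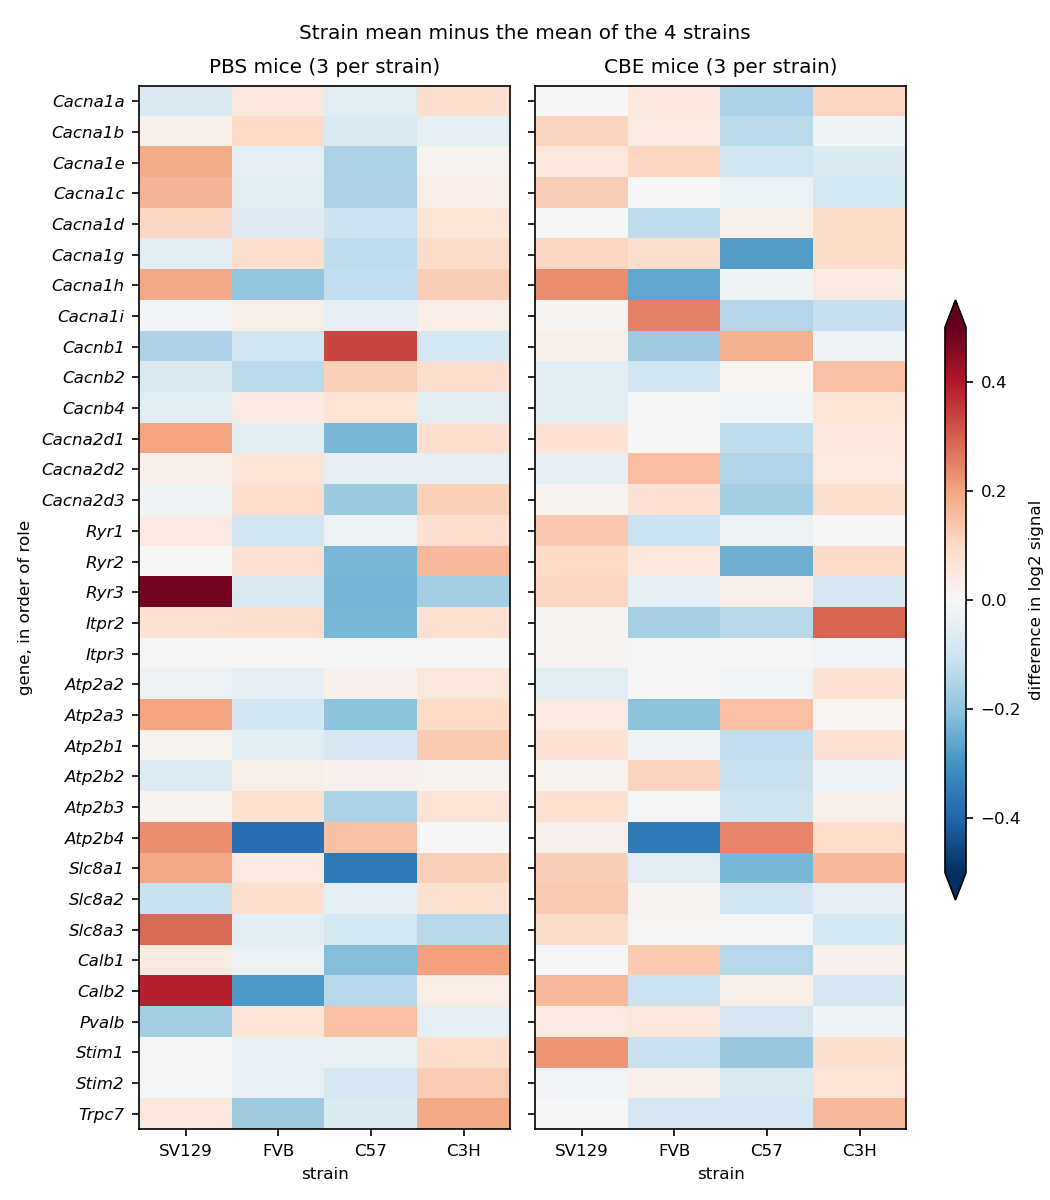
Difference between each strain mean and the mean of the 4 strains with the same agent, in log2 units (colour, truncated at the ends of the bar), for the 34 genes (rows, in order of role) in the 4 PBS and the 4 CBE groups (columns, 3 mice each). The C57 columns hold the lowest value of a treatment for 19 genes in PBS and 18 in CBE mice.

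Slc8a1, the exchanger NCX1, was lowest in C57. In PBS mice it (probe set 17347619) read 9.38, 9.64 and 9.49 in SV129, 9.48, 9.27 and 9.31 in FVB, 9.09, 8.92 and 8.85 in C57, and 9.49, 9.48 and 9.32 in C3H. In CBE mice it read 9.48, 9.31 and 9.27 in SV129, 9.09, 9.21 and 9.23 in FVB, 8.98, 9.10 and 8.93 in C57, and 9.51, 9.34 and 9.33 in C3H. The 3 C57 PBS arrays lay below all 9 other PBS arrays, and in CBE mice the C57 arrays lay below all SV129 and C3H arrays and met those of FVB. Among PBS mice SV129 exceeded C57 by 0.55 ± 0.09 (adjusted p = 4.0e-04), FVB exceeded it by 0.40 (0.0070), and the C57 minus C3H difference was -0.47 (0.0017), each p adjusted over genes within the pair and not over pairs. The F-test gave an adjusted p of 7.4e-04 in PBS mice and 0.013 in the separate CBE mice.

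Ryr2, the ryanodine receptor, was also lowest in C57. PBS arrays (probe set 17290457) read 9.09, 9.37 and 9.56 in SV129, 9.42, 9.43 and 9.38 in FVB, 9.13, 9.11 and 9.09 in C57, and 9.49, 9.43 and 9.58 in C3H. CBE arrays read 9.54, 9.34 and 9.47 in SV129, 9.43, 9.37 and 9.42 in FVB, 9.07, 9.08 and 9.16 in C57, and 9.37, 9.50 and 9.47 in C3H. All 3 C57 CBE arrays lay below the other 9 CBE arrays, while among PBS mice the SV129 array that stood apart was as low as C57. FVB exceeded C57 by 0.30 in PBS mice (adjusted p = 0.030) and by 0.30 in CBE mice (0.035), and C57 minus C3H was -0.39 (0.0059) and -0.34 (0.019). The F-test gave 0.015 in PBS and 0.018 in CBE mice. Slc8a1 and Ryr2 were the 2 genes called in both treatments, or 22.2% of the 9 called in PBS mice, against 53.5% of all PBS-called genes.

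Cacna2d1, the alpha2delta-1 subunit, had its lowest PBS mean in C57, and Cacnb1, a beta subunit, had its highest there. Cacna2d1 (probe set 17434890) read in PBS mice 10.91, 11.19 and 11.11 in SV129, 10.73, 10.82 and 10.90 in FVB, 10.54, 10.67 and 10.72 in C57, and 10.94, 10.91 and 11.02 in C3H, and in CBE mice 10.96, 10.83 and 11.07 in SV129, 10.93, 10.78 and 10.94 in FVB, 10.68, 10.66 and 10.94 in C57, and 10.91, 10.84 and 11.05 in C3H. C57 lay below all other PBS arrays, though barely below FVB (10.72 against 10.73), and overlapped the others in CBE mice. SV129 exceeded C57 by 0.43 ± 0.09 in PBS mice (adjusted p = 0.0052) and by 0.20 in CBE mice (0.24). In PBS mice C57 minus C3H was -0.31 (adjusted p = 0.042), while FVB minus C57 was 0.17 and not called (0.31). Cacnb1 (probe set 17268691) read in PBS mice 8.01, 7.89 and 8.02 in SV129, 7.997, 8.18 and 7.91 in FVB, 8.56, 8.46 and 8.35 in C57, and 8.04, 7.96 and 8.10 in C3H, and in CBE mice 8.03, 8.26 and 7.98 in SV129, 7.69, 7.93 and 8.02 in FVB, 8.34, 8.34 and 8.05 in C57, and 7.91, 8.19 and 8.02 in C3H. Here C57 lay above all other PBS arrays and its CBE arrays overlapped those of SV129 and C3H. SV129 minus C57 was -0.49 ± 0.11 in PBS mice (adjusted p = 0.0055) and -0.15 in CBE mice (0.48), while FVB minus C57 was called in both (-0.43 and -0.36; 0.014 and 0.039). Without C57 PBS replicate 1 the F-tests of Cacnb1 and Cacna2d1 in PBS mice gave adjusted p = 0.072 and 0.066.

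In SV129, Ryr3, Slc8a3 and Calb2 had their highest PBS values. Ryr3 (probe set 17389339) read in PBS mice 5.69, 5.34 and 5.27 in SV129, 4.97, 4.90 and 4.76 in FVB, 4.90, 4.61 and 4.65 in C57, and 4.85, 4.65 and 4.85 in C3H, and in CBE mice 5.15, 5.18 and 4.70 in SV129, 4.96, 4.96 and 4.66 in FVB, 5.005, 4.90 and 4.89 in C57, and 4.91, 4.74 and 4.82 in C3H. The 3 SV129 PBS arrays lay above all 9 other PBS arrays, and the SV129 CBE arrays overlapped the rest. SV129 exceeded FVB by 0.55 ± 0.13 (adjusted p = 0.013), C57 by 0.71 (8.8e-04) and C3H by 0.65 (0.0047) in PBS mice, and by 0.15, 0.08 and 0.19 in CBE mice (0.63, 0.79 and 0.62). Without the array that stood apart, the F-test of Ryr3 gave an adjusted p of 0.015, the excess over FVB was 0.43 (0.063), and the CBE difference in SV129 was -0.29 (0.28). Slc8a3 in PBS mice of SV129 was likewise above all other PBS arrays, by 0.37 over C57 and 0.42 over C3H (adjusted p = 0.024 for each).

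Calb2, found in bipolar interneurons and in other brain regions, read (probe set 17512872) in PBS mice 6.61, 6.53 and 6.44 in SV129, 5.90, 6.02 and 5.64 in FVB, 6.01, 6.13 and 5.86 in C57, and 6.18, 5.94 and 6.41 in C3H, and in CBE mice 6.15, 6.57 and 5.95 in SV129, 5.82, 5.81 and 6.23 in FVB, 6.22, 5.74 and 6.31 in C57, and 5.89, 5.75 and 6.30 in C3H. SV129 PBS arrays lay just above the highest C3H array, and the CBE arrays of the strains overlapped. SV129 exceeded FVB by 0.67 ± 0.18 in PBS mice (adjusted p = 0.032) and by 0.27 in CBE mice (0.51). The high PBS levels of Ryr3, Slc8a3 and Calb2 in SV129 and their lower CBE values there rest on the same 3 PBS arrays and are not separate results. The mean level of the 10 thalamic markers was 5.81 to 5.93 on SV129 PBS arrays against 5.68 to 5.71 on SV129 CBE arrays, 5.60 to 5.72 on other PBS arrays and 5.63 to 5.80 on other CBE arrays. The lower SV129 CBE level of the list came from Ntng1 and Slc17a6, which differed by -0.82 and -0.85 between CBE and PBS mice of SV129, while Plekhg1 and Amotl1 differed by 0.27 and 0.23. Ntng1 averaged 8.33 in PBS mice of SV129 and 7.32 to 7.78 in the other PBS groups, while Slc17a6 averaged 8.59 there and 8.49 in those of C57. Of the 10, 3 differed between strains in PBS mice, and 2 were below the median probe set, the lowest being Synpo2 at 3.39. The mean level of the 6 hippocampal markers, 4 of them below the median probe set, was 4.04 to 4.13 on SV129 PBS arrays and 3.91 to 4.04 on other PBS arrays. It was 4.02 to 4.06 on SV129 CBE arrays and 3.88 to 4.11 on other CBE arrays. Prox1 was 1 of the 6 and averaged 5.63 in PBS mice of SV129 and 5.13 to 5.29 in the other PBS groups. The mean level of the 5 measured striatal markers was 5.99 to 6.38 on SV129 PBS arrays and 5.73 to 6.64 on other PBS arrays. It was 5.78 to 6.13 on SV129 CBE arrays and 5.70 to 6.14 on other CBE arrays. The mean level of the 10 measured inhibitory interneuron markers averaged 8.14 in PBS mice of SV129 (arrays 7.98 to 8.29) and 8.18 in its CBE mice (8.10 to 8.28). In PBS mice of FVB, C57 and C3H it averaged 8.02, 8.01 and 8.04, with arrays from 7.96 to 8.13 that overlapped those of SV129. Of the 10, 3 differed between PBS strains. The part of thalamic, hippocampal and striatal tissue and of interneurons in the results for Ryr3, Slc8a3 and Calb2 was not tested.

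Trpc7 and Cacna1c were called close to the threshold. In PBS mice the values of Trpc7 given above were lowest in FVB and highest in C3H, with FVB minus C3H at -0.37 ± 0.10 (adjusted p = 0.043), and the F-test gave 0.046 in PBS and 0.21 in CBE mice. Cacna1c, the pore of the L-type channel Cav1.2, read (probe set 17470235) in PBS mice 8.54, 8.60 and 8.69 in SV129, 8.38, 8.38 and 8.41 in FVB, 8.11, 8.41 and 8.33 in C57, and 8.40, 8.48 and 8.54 in C3H, and in CBE mice 8.48, 8.71 and 8.62 in SV129, 8.57, 8.44 and 8.44 in FVB, 8.45, 8.31 and 8.58 in C57, and 8.32, 8.44 and 8.42 in C3H. The SV129 PBS arrays lay above those of FVB and C57, and SV129 exceeded C57 by 0.33 (adjusted p = 0.018) in PBS and by 0.16 (0.32) in CBE mice. Its F-test in PBS mice had an adjusted p of 0.0499, and leaving out 1 array ended the call in 19 of 24 cases. Atp2a3 came next at 0.058, with the values printed above.

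**Figure D4:**
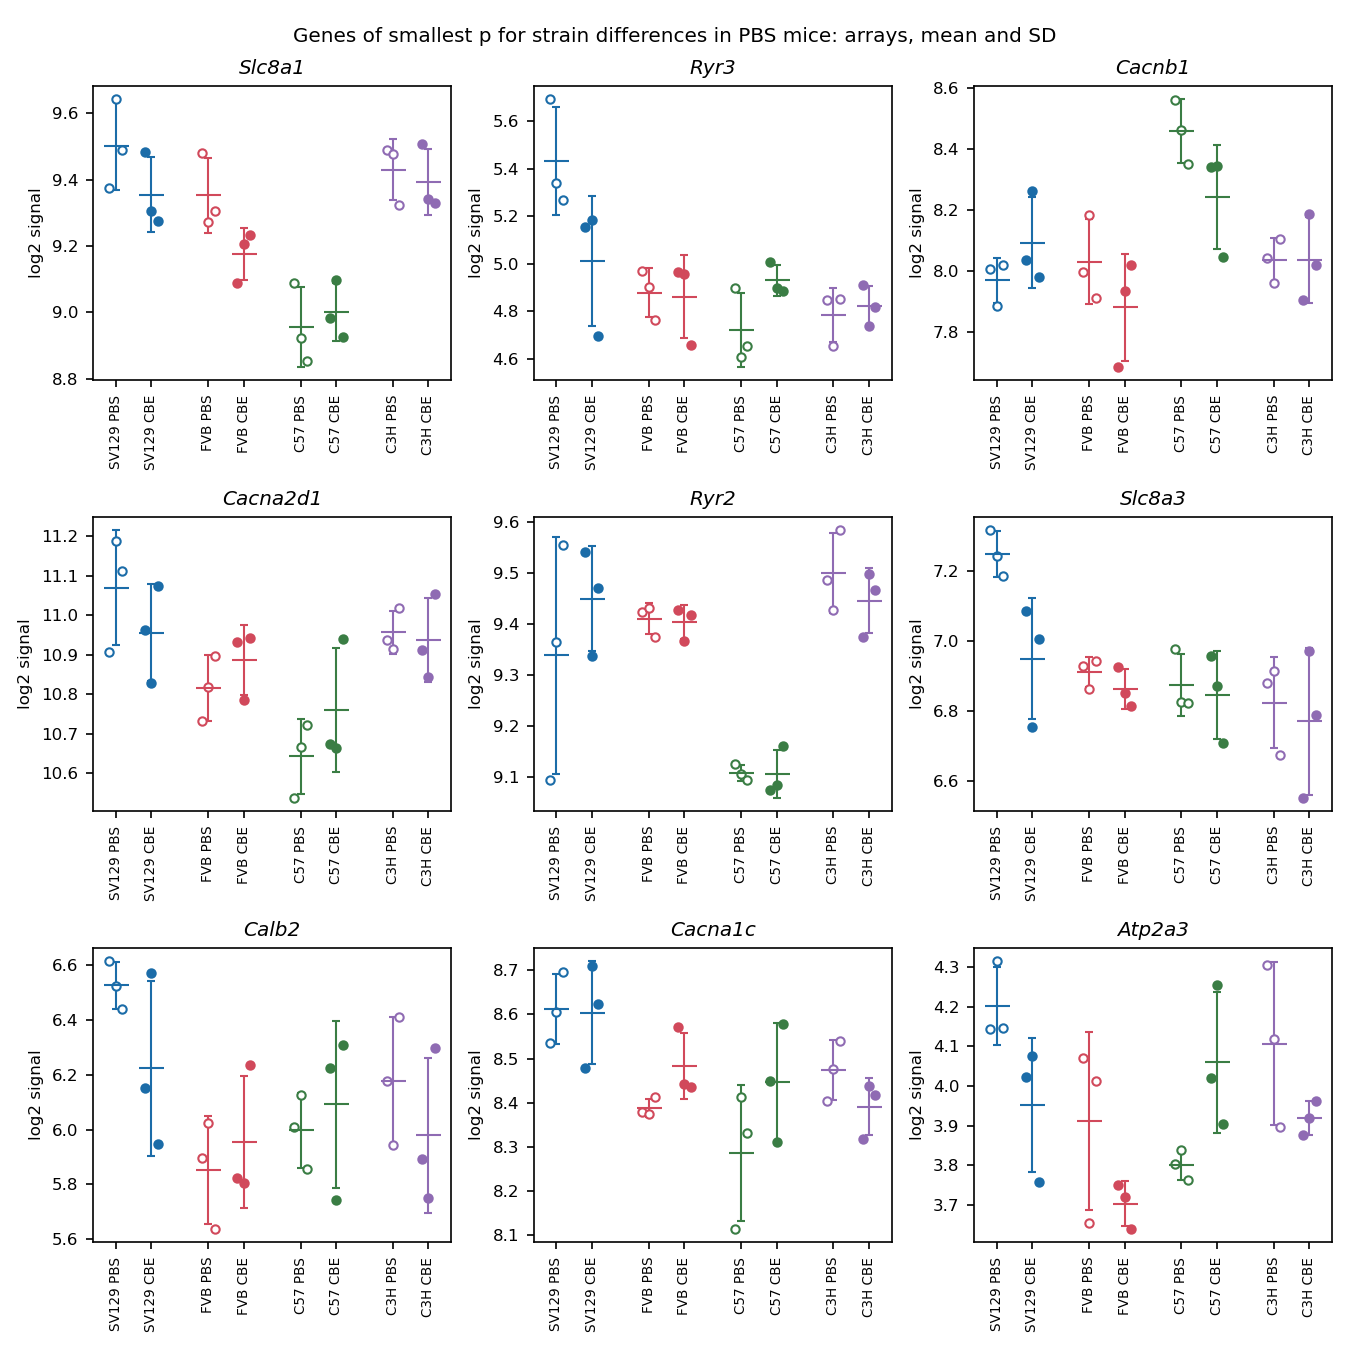
Log2 signal (y axis, a separate range in each panel) of 9 of the 10 genes with the smallest p for differences between strains in PBS mice (Trpc7 is plotted with the CBE comparison), by strain and agent (x axis). Open circles are PBS arrays, filled circles CBE arrays, and lines with bars the mean and SD of 3 mice. Slc8a1 is low in C57 with either agent, and the SV129 PBS arrays of Ryr3 lie above all other PBS arrays.

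Across pairs of strains in PBS mice, SV129 and C57 differed in 8 of the 34 genes (23.5%, against 7.72% of all genes): Slc8a1, Ryr3, Cacnb1, Cacna2d1, Cacna1c, Slc8a3, Cacna1e and Atp2a3. C57 and C3H differed in 5 (14.7%, against 6.7%), namely Slc8a1, Ryr2, Cacnb1, Cacna2d1 and Atp2b1, and FVB and C57 in 3 (8.82%, against 7.91%), namely Slc8a1, Cacnb1 and Ryr2. The pairs without C57 gave 2 for SV129 and FVB (5.88%, against 3.88%), 2 for SV129 and C3H (5.88%, against 2.34%) and 1 for FVB and C3H (2.94%, against 2.28%). Without the SV129 PBS array that stood apart, the SV129 pairs gave 7 with C57 (6.85% of all genes), 0 with FVB (4.63%) and 1, Ryr3, with C3H (2.28%). The calls of Calb2, Slc8a3 and Cacna1e were lost, as was that of Ryr3 with FVB. Ryr2 was gained with C57, at 0.35 (adjusted p = 0.0065). Each strain enters 3 of these pairs, so the counts are not independent. The shares of all genes here and below include dim genes. They were not computed among genes above the median probe set, where the PBS F-test share came closer to that of the calcium genes. C57 had the lowest PBS mean for 19 of 34 genes (55.9%, against 32.3% of all genes) and the lowest CBE mean for 18 (52.9%, against 34.1%), and for 13 in both (38.2%, against 17.1%). C3H had the lowest PBS mean for 1 gene (2.94%, against 19.3%), and SV129 and C3H had the highest for 12 each (35.3%, against 26.6% and 23.7%). On PBS arrays the mean level of the pan-neuronal list was 11.13 to 11.19 in C57 and 11.05 to 11.17 in SV129. It was 11.09 to 11.17 in FVB and 11.02 to 11.13 in C3H, and 2 of its 9 genes differed between PBS strains. The mean level of the cerebellar marker list on PBS arrays was 4.66 to 4.83 in C57 and 4.84 to 5.05 in SV129. It was 4.85 to 4.95 in FVB and 4.76 to 4.80 in C3H. The oligodendrocyte list read 8.90 to 9.59 in C57, 8.44 to 9.06 in SV129, 9.34 to 9.68 in FVB and 7.84 to 8.73 in C3H. Of its 6 measured genes, 4 differed between PBS strains. The parvalbumin interneuron list read 7.07 to 7.13 in C57, 6.62 to 7.06 in SV129, 6.86 to 6.99 in FVB and 7.03 to 7.25 in C3H. Within it, Cox6a2 averaged 6.57 in C57 and 5.25 in SV129, while Tac1 and Lhx6 were lower in C57 (5.97 against 6.36 and 6.66 against 6.81). The part of these markers in the strain results was not tested.

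Among CBE mice, 4 of the 34 genes differed between strains (11.8%, against 11.8% of all genes): Itpr2 (adjusted p = 0.010), Slc8a1, Ryr2 and Stim1 (0.044). Among genes above the median probe set these were 4 of 31 (12.9%), against 21.4%. Itpr2 read in CBE mice 7.33, 7.39 and 7.31 in SV129, 7.18, 7.22 and 7.09 in FVB, 7.11, 7.18 and 7.28 in C57, and 7.86, 7.47 and 7.54 in C3H, and in PBS mice 7.58, 7.33 and 7.30 in SV129, 7.61, 7.39 and 7.24 in FVB, 7.02, 7.16 and 7.12 in C57, and 7.33, 7.43 and 7.46 in C3H. The C3H CBE arrays lay above all 9 other CBE arrays, and the PBS arrays of C3H, SV129 and FVB overlapped. FVB minus C3H was -0.46 (adjusted p = 0.014) in CBE and 0.00 in PBS mice, and C57 minus C3H was -0.43 (0.012) and -0.31 (0.074). Stim1, with the values given above, was lower in C57 than in SV129 by 0.41 in CBE mice (0.023) and differed by 0.03 in PBS mice, and leaving out 1 array ended its F-test call in 17 of 24 cases. The CBE count ran from 2, without any 1 of the 3 C57 CBE arrays, to 7 without SV129 PBS replicate 1. When PBS and CBE mice of each strain were averaged, a comparison chosen after the data were seen, 15 of 34 genes differed between strains (44.1%, against 24.7% of all genes). The share among genes above the median probe set was not computed for this comparison. The genes added to the 9 were Cacna1a, Cacna1h, Cacna2d3, Itpr2, Atp2b1 and Atp2b4.

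Other genes of calcium handling were read from 8 lists with 86 genes, of which 77 were measured. None of the 77 was called for CBE in the mean of 4 strains, within a strain or in the interaction, and 9 had an unadjusted p under 0.05 in the mean of 4 strains (11.7%, against 10.7% of all genes). Between strains, 13 differed in PBS mice (16.9%, against 13% of all genes) and 10 in CBE mice (13%, against 11.8%), shares near those of all genes. Of 11 other voltage-gated channel subunits, 2 differed between PBS strains: Cacng6 averaged 5.19 in C3H and 4.01 to 4.14 elsewhere (adjusted p = 4e-06), and Cacng3, which also escorts AMPA receptors, ranged from 10.93 in FVB to 11.55 in C57 (4.4e-05). Of 9 TRPC and store-operated entry genes, 3 differed, and Trpc6, a close relative of Trpc7, averaged 7.51 in C3H, 7.02 in C57, 6.64 in FVB and 6.42 in SV129 (0.0026). Slc24a4, a potassium-dependent sodium-calcium exchanger, averaged 8.10 in FVB and 8.58 to 8.73 elsewhere (3.2e-04), as the 1 of 7 other calcium transporters called. Among 13 neuronal calcium sensors, 3 differed, led by hippocalcin (Hpca, 4.4e-04) and Kcnip3 (9.9e-04), both highest in C57 at 7.04 and 9.62. Of 6 genes of mitochondrial calcium uptake, 2 differed (Micu2, 0.034, and Vdac1, 0.042), of 4 lysosomal channels, 1 (Mcoln1, 0.018), and of 12 calmodulin-linked kinases and phosphatase genes, 1 (Rcan1, 0.028). None of the 15 ER and junction proteins was called in PBS or CBE mice.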

How the data were processed

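Cortex RNA from 24 mice (8 groups of 3) was hybridised to 1-colour Affymetrix whole-transcript arrays from 100 ng of total RNA, per the labels' protocols. The deposited log2 values, 1 table of 41034 probe sets, were summarised by the authors with RMA in Partek, per the submitters' processing notes; the sources used here do not give versions or a genome build. The log2 scale follows from RMA and the range of 2.43 to 14.09. RMA normalizes arrays together and so hides a shift common to all genes; the values carry no depth, and the number of arrays limits the precision.

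Probe sets were named by the platform annotation: 23521 had 1 symbol, 1814 several and 15699 none. Of 22180 genes, 1082 had several probe sets and the one of highest mean was used. limma 3.58.1 in R 4.3.3 fitted 1 mean per group to all 24 arrays (16 residual degrees of freedom plus 5.10 from the prior); tests were two-sided, with Benjamini-Hochberg adjustment over all genes and a threshold of 0.05. The procedure was tested on simulated data. Genes named with values on every array were those called for CBE, the 6 of smallest p in the mean of 4 strains, and up to 10 of smallest p between PBS strains; other calcium genes were named only past the threshold, at most 2 a list. Pvalb and Itpr2 were added after their values were seen. The members and lists were chosen with earlier results of these data known. Equal replicate numbers did not pair arrays: deviations of same-numbered PBS and CBE arrays correlated at -0.19 to 0.20. Alternatives are given in the closing section.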

Additional observations from a re-analysis of the deposited data

How the results depend on the processing

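Trpc7 was the 1 gene called in the mean of 4 strains under each of 8 other settings and in all 24 fits without 1 array (change -0.29 to -0.24, adjusted p 0.0015 to 0.013). The counts in single strains and in the interaction stayed at 0 in all of these, and in fits on the 6 arrays of a strain. The PBS strain count was 5 to 9 when 1 array was left out and 7 to 12 under the 8 other settings; averaging PBS and CBE mice moved it to 15. The CBE strain count was 2 to 7 without 1 array and 3 to 5 otherwise. Slc8a1 and Ryr3 kept their PBS calls under every alternative (adjusted p up to 0.0099 and 0.015). Calls lost without single arrays, with the highest adjusted p, were Cacnb1 (0.072), Cacna2d1 (0.066), Ryr2 (0.058), Slc8a3 (0.084), Trpc7 (0.14), Calb2 (0.13) and Cacna1c (0.16) in PBS mice, and Ryr2 (0.091), Itpr2 (0.069), Slc8a1 (0.060) and Stim1 (0.15) in CBE mice; Trpc7 and Calb2 lost theirs in 15 of 24 fits, Cacna1c in 19 and Stim1 in 17. Taking the mean of all probe sets gave Cacnb2 a difference of -0.06. Of 20 results followed for single genes, 8 kept their side of the threshold throughout and 0 reversed; the cause of the other changes was not tested. With the replicate number as a block, the count was 1 in the mean of 4 strains, 0 in each strain and the interaction, 9 between PBS strains and 3 between CBE strains; Calb2 and Stim1 lost their calls and Atp2a3 passed in PBS mice.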
